A study of Mus musculus with 24 samples.

Results

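Respiratory complex I, the NADH:ubiquinone oxidoreductase of the inner mitochondrial membrane, is built from subunits of the nuclear and of the mitochondrial genome, and the nuclear subunits carry the symbols Nduf. They were followed in mouse liver during pancreatitis. Genes were chosen by name alone, as symbols that begin with Ndufa and a digit, Ndufab1, Ndufb, Ndufc, Ndufs or Ndufv, and 41 of the 55536 genes in the table met this rule. Of these, 36 encode subunits with a place in complex I: 7 core subunits, 9 accessory subunits of the matrix arm, 9 of the proximal membrane arm and 11 of the distal membrane arm. The other 5 are Ndufa4, whose product is now assigned to complex IV, its paralogue Ndufa4l2, and Ndufa11b, Ndufb4c and Ndufs6b, which GENCODE M21 lists as processed pseudogenes. The symbol Ndufb1-ps, with a hyphen, was left out by the rule.

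Complex I takes electrons from NADH at a flavin in its matrix arm, passes them along a chain of iron-sulfur clusters to ubiquinone, and couples this to proton pumping across the membrane arm. The core subunits do this work, and the accessory subunits surround them and are needed for assembly and stability. In hepatocytes, which are rich in mitochondria, the complex reoxidises the NADH made by fatty acid and amino acid breakdown.

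Liver RNA had been sequenced from 3 groups of wild-type Balb/c mice aged 6 weeks, labelled SAP (severe acute pancreatitis), AP (acute pancreatitis) and Con (controls), with 8 libraries each. How pancreatitis was induced, and how long before sampling, is not given in the sources used here, and the 3 groups share strain, genotype, age and tissue. The labels do not state that each library came from a separate mouse, and the p-values therefore speak of variation among libraries, which may be technical. Values are in TPM (transcripts per 1000000), which are relative to transcript length and to the total of each library, and the number of reads behind them is unknown. In bulk liver, fewer cells of a type and less RNA per cell cannot be told apart.

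The tissue label was checked by hepatocyte markers such as Alb, whose list of 6 genes summed to 36936 to 48955 TPM in SAP, 38400 to 52884 TPM in AP and 39634 to 49552 TPM in Con libraries. Most of that sum was Alb and Apoa1, and single markers moved within it. Of the 6, 2 were called higher and 2 lower in SAP than in Con, beside 44.2% and 29.8% of all genes. Tat averaged 1554 TPM in SAP and 172 TPM in Con, Cyp2e1 2381 and 1374 TPM, Ttr 2808 and 5826 TPM, and Cps1 337 and 825 TPM. Several things moved with the SAP group. The 6 neutrophil markers summed to 123 to 346 TPM in SAP, 3.36 to 7.39 TPM in AP and 2.17 to 27.3 TPM in Con libraries, nearly all of it S100a8 and S100a9. All 3 neutrophil markers that reached the filter (S100a8, S100a9 and Retnlg) were called higher in SAP than in Con, without overlap. Retnlg averaged 5.63 ± 2.22 TPM in SAP, 0.234 ± 0.203 TPM in AP and 0.175 ± 0.139 TPM in Con (SD, n = 8 each). Below the filter, Ly6g averaged 0.711, 0.0788 and 0.0963 TPM, Mpo 0.259, 0.130 and 0.0688 TPM, and Elane 0.0563, 0.231 and 0.205 TPM in SAP, AP and Con. The 4 adipocyte markers summed to 145 to 554 TPM in SAP, 8.46 to 15.0 TPM in AP and 5.82 to 11.8 TPM in Con libraries, mostly Cidec and Fabp4. Adipoq had a median of 0.015 TPM in SAP, with 0.8 TPM in SAP 21 and 0.51 TPM in SAP 26. In SAP 28, however, Adipoq stood at 10.65 TPM, Plin1 at 2.32 TPM and Fabp4 at 338 TPM, the highest level of each. The 5 stellate cell markers summed to 50.8 to 118 TPM in SAP, 14.6 to 43.9 TPM in AP and 23.3 to 49.5 TPM in Con libraries. That rise was in Dcn alone of the 4 tested, as Col1a1, Col3a1 and Des were called lower in SAP than in Con. Elastase Cela1 made up most of the exocrine pancreas list, which summed to 7.90 to 14.8 TPM in SAP, 16.4 to 26.2 TPM in AP and 17.1 to 41.1 TPM in Con libraries, with Prss1 at 0 throughout. Summed ranges of the SAP and Con groups overlapped for markers of monocytes and Kupffer cells, lymphocytes, endothelium, cholangiocytes and red cells, but single markers moved within them. Of the endothelial list, Lyve1 averaged 11.2 TPM in SAP and 0.301 TPM in Con and Stab2 9.25 and 1.92 TPM, both called higher, whereas Clec4g averaged 3.01 TPM in SAP and 17.8 TPM in Con and was called lower. Of 4 tested monocyte and Kupffer cell markers, Clec4f, Vsig4 and Cd68 were called lower. Genes of the mitochondrial genome took 4.46% ± 1.02 of all TPM in SAP, 10.9% ± 1.996 in AP and 17.1% ± 3.68 in Con libraries (SD, n = 8 each). The part of these shifts in the values below was not tested.

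The summed level of the 41 Nduf genes was 5073 ± 373 TPM in SAP, 8217 ± 579 TPM in AP and 7350 ± 606 TPM in Con libraries (SD, n = 8 each). The 8 SAP libraries ranged between 4526 and 5504 TPM, all below the lowest Con library at 6617 TPM and the lowest AP library at 7519 TPM. AP libraries reached up to 9053 TPM and Con libraries up to 8141 TPM, so these 2 groups overlapped. Taking the mitochondrial genome out of the total gave 5352 ± 434 per 1000000 in SAP, 9299 ± 570 in AP and 8950 ± 484 in Con libraries, and SAP stayed apart. The AP and Con means lay closer together on that scale. The 3 Con libraries with the lowest Nduf sums (Con 1, 7 and 10) were the 3 with the largest mitochondrial share.

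**Figure D1:**
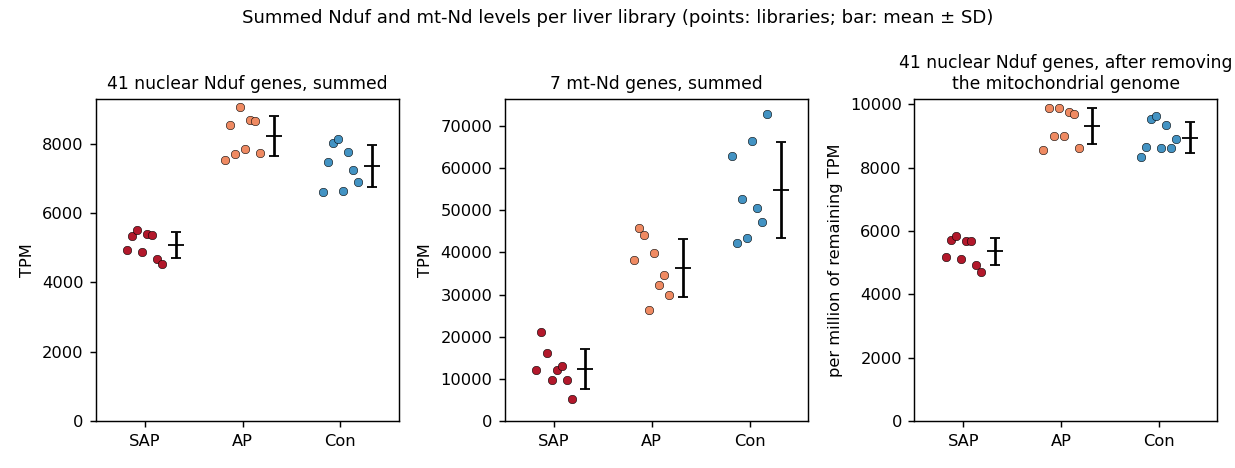
Summed TPM per library (y axes) in SAP, AP and Con (x axes), for the 41 nuclear Nduf genes, the 7 mt-Nd genes, and the Nduf genes per 1000000 of what remains once the mitochondrial genome is removed. Points are libraries and bars are means ± SD, and in each panel the SAP libraries lie below every Con library.

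Compared with Con, nuclear complex I genes in SAP livers mostly fell, and did so unevenly. Of the 39 Nduf genes that averaged 1 TPM or more over all libraries, 24 were lower and 6 were higher in SAP at an adjusted p under 0.05 (limma on log2(TPM + 1), Benjamini-Hochberg over 10555 genes), and 9 passed in neither direction. Among all genes tested, 29.8% were lower and 44.2% were higher in this comparison, so that 61.5% of the Nduf genes lay on the side that held the smaller part of the transcriptome. Their median log2 change was -0.39, beside 0.21 over all genes. In 18 Nduf genes every SAP library lay below every Con library, which 14.6% of all genes did, and in 2 every SAP library lay above, which 23.2% of all genes did. Log2 changes ran from -2.005 for Ndufb4 to 0.70 for Ndufa4, and 13 genes fell by more than 1 on this scale.

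**Figure D2:**
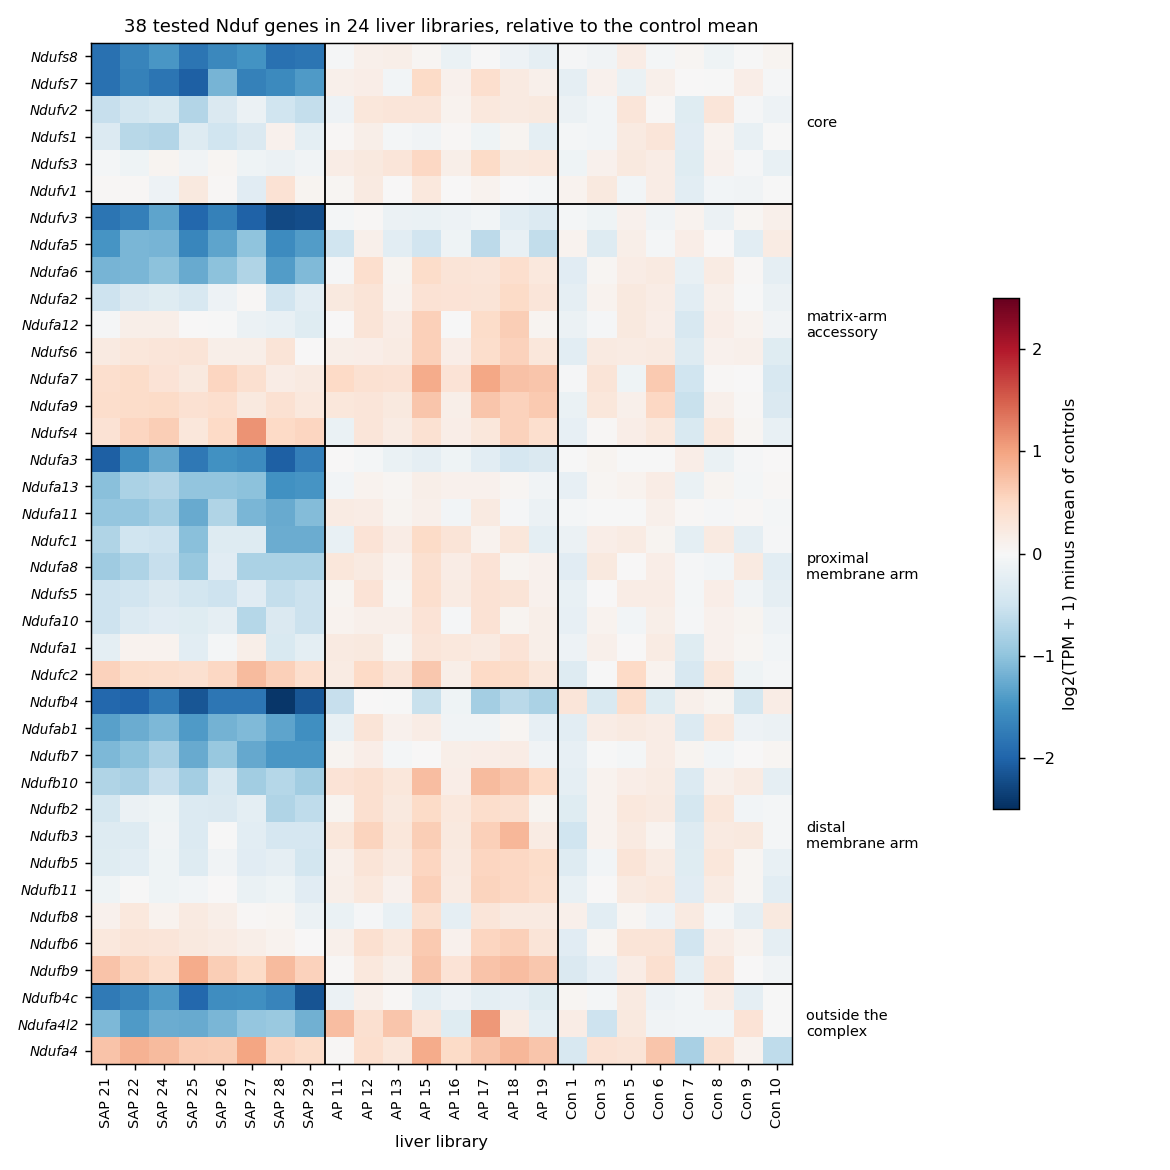
Each row is 1 of 38 tested Nduf genes, in blocks by place in the complex, and each column is 1 library, with SAP, AP and Con from left to right. Colour gives log2(TPM + 1) minus the Con mean of that gene, and blue (lower) rows such as Ndufs8 and Ndufb4 stand beside red (higher) rows such as Ndufb9 and Ndufs4 in the same SAP libraries.

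The core subunits did not move as 1 block. Ndufs7 and Ndufs8 carry the iron-sulfur clusters nearest to the ubiquinone site, and both fell by more than 1.6 log2 units. Ndufs8 stood at 61.84, 67.28 and 81.53 TPM (lowest, median and highest of 8 libraries) in SAP, 194.6, 222.89 and 251.54 TPM in AP, and 211.4, 224.19 and 256.23 TPM in Con. Every SAP library was far below both other groups, which overlapped almost wholly. The fall against Con was 3.25-fold (log2 change -1.70, SE 0.08, limma adjusted p = 4.89e-15), and with a log2 change of -0.03 between AP and Con (limma adjusted p = 0.891) no difference was called there. Ndufs7 had 38.03, 49.115 and 71.14 TPM in SAP, 153.63, 177.69 and 224.57 TPM in AP, and 138.02, 159.76 and 180.25 TPM in Con. Again no SAP library reached the range of another group, and the level was 3.16-fold lower than in Con (log2 change -1.66, SE 0.11, limma adjusted p = 1.56e-12).

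The core subunits of the NADH-oxidising tip changed less. Ndufv2, an iron-sulfur protein beside the flavin, had 80.97, 96.29 and 121.31 TPM (lowest, median, highest) in SAP, 122.67, 160.72 and 166.61 TPM in AP, and 109.38, 131.12 and 167.59 TPM in Con. With 7 of 8 SAP libraries below every Con library, it fell by 0.47 on the log2 scale (SE 0.10, limma adjusted p = 2.05e-04). Ndufs1, the large iron-sulfur subunit, had 17.58, 23.335 and 32.57 TPM in SAP, 25.28, 29.87 and 33.24 TPM in AP, and 24.29, 29.46 and 37.03 TPM in Con. Its groups overlapped, 6 of 8 SAP libraries were below every Con library, and it fell by 0.39 (SE 0.11, limma adjusted p = 0.00314), a call that was lost without SAP 21, 22, 24 and 25 (log2 change -0.25, limma adjusted p = 0.0750). Ndufv1, which binds NADH and the flavin, had 50.07, 62.47 and 78.72 TPM in SAP, 58.64, 62.32 and 73.57 TPM in AP, and 50.75, 59.225 and 72.36 TPM in Con. The 3 ranges overlapped, and it was called in none of the 3 comparisons (log2 change 0.04, SE 0.09, limma adjusted p = 0.684 for SAP against Con). After centring each library on its median it was called lower in SAP, at -0.23 against Con (limma adjusted p = 0.0232) and -0.25 against AP (limma adjusted p = 0.0140).

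Ndufs3 belongs to the ubiquinone-reducing part of the matrix arm, as Ndufs7 and Ndufs8 do. Ndufs3 had 116.8, 122.38 and 136.4 TPM (lowest, median, highest) in SAP, 143.91, 155.13 and 186.64 TPM in AP, and 104.54, 133.69 and 153.43 TPM in Con. SAP and Con overlapped, and the change of -0.06 (SE 0.09, limma adjusted p = 0.540) became a call under 2 scalings, at -0.34 after centring each library on its median and -0.27 after removal of the mitochondrial genome.

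Ratios within a library do not depend on its total. The ratio of Ndufs8 to Ndufv1 was 1.12 ± 0.280 in SAP, 3.45 ± 0.276 in AP and 3.75 ± 0.585 in Con libraries (SD, n = 8 each). Its SAP range of 0.786 to 1.58 lay below the AP range of 3.19 to 4.08 and the Con range of 2.92 to 4.60. For Ndufs7 over Ndufv1 the SAP libraries spanned 0.5257 to 1.15, the AP libraries 2.49 to 3.29 and the Con libraries 2.14 to 3.16. Both pairs were picked after their levels had been seen, and the ratios are given as a description.

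**Figure D3:**
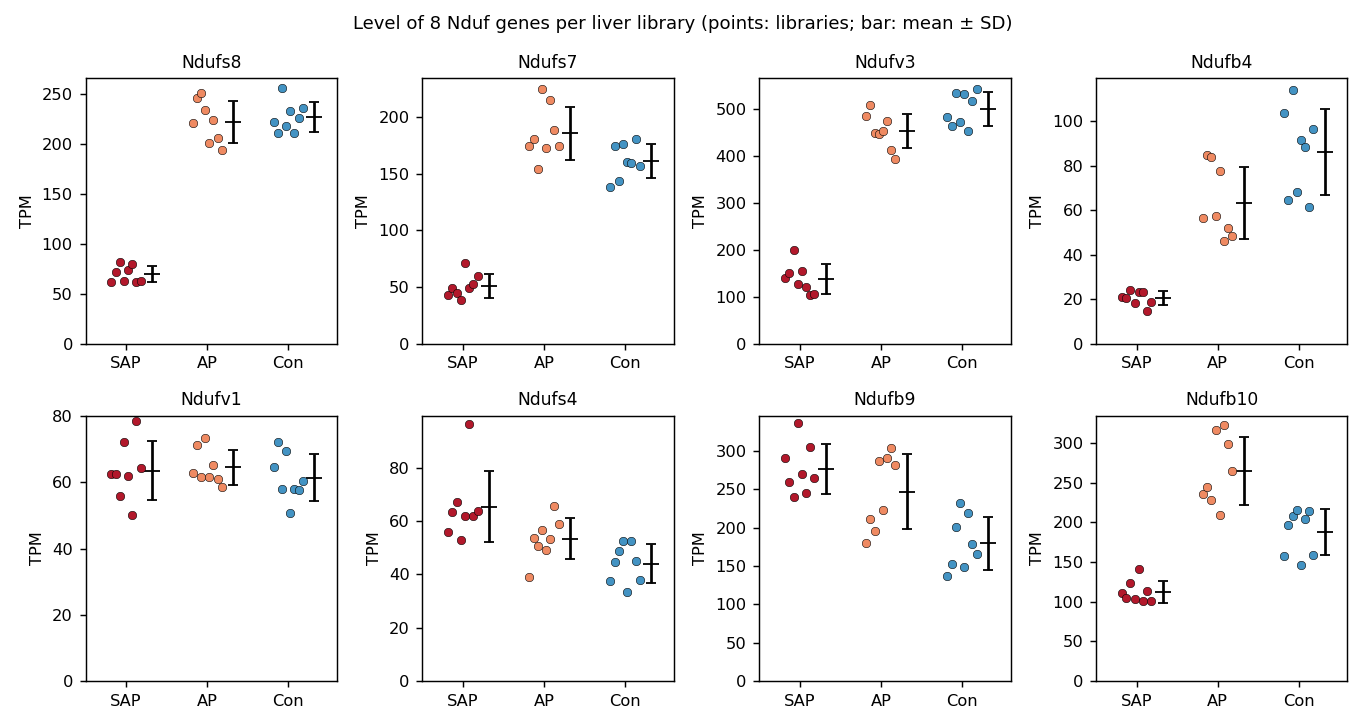
TPM (y axes) of 8 Nduf genes in SAP, AP and Con libraries (x axes), with points for libraries and bars for means ± SD. In the SAP libraries Ndufs8, Ndufs7, Ndufv3, Ndufb4 and Ndufb10 lie below every Con library, Ndufs4 and Ndufb9 lie above every Con library, and the Ndufv1 ranges overlap.

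Accessory subunits of the matrix arm went both ways in SAP against Con: 4 of 9 were lower and 3 were higher, beside 29.8% and 44.2% of all genes. Their median log2 change was -0.05. Ndufv3, a small subunit at the NADH-oxidising tip, had 102.85, 132.99 and 199.09 TPM (lowest, median, highest) in SAP, 393.46, 450.89 and 507.26 TPM in AP, and 451.58, 498.64 and 542.11 TPM in Con. It fell 3.67-fold, with no overlap between SAP and Con (log2 change -1.88, SE 0.11, limma adjusted p = 9.61e-14). Ndufa5 (log2 change -1.33), Ndufa6 (-1.11) and Ndufa2 (-0.30) were the others that fell. Ndufs4, which anchors the NADH-oxidising module and whose loss causes a Leigh-like disease in mice, had 53.0, 62.7 and 96.4 TPM in SAP, 38.94, 53.495 and 65.58 TPM in AP, and 33.29, 44.89 and 52.61 TPM in Con. All SAP libraries were above every Con library, the highest of them, SAP 27, standing well apart. The rise was 1.47-fold (log2 change 0.56, SE 0.12, limma adjusted p = 2.71e-04), and 0.47 without SAP 27 (limma adjusted p = 5.94e-04). Ndufa9, at the junction of the arms, and Ndufa7 also rose, by 0.38 and 0.35. The calls of Ndufa9 and Ndufa7 were lost after centring on the median and after removal of the mitochondrial genome, and that of Ndufs4 after centring alone. Ndufa7 also lost its call without Con 7 or Con 10.

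The proximal membrane arm had the lowest median of the 4 places, at -0.73. Of its 9 genes 7 were lower and 1 was higher, beside 29.8% and 44.2% of all genes. Ndufa3 averaged 134 ± 24.2 TPM in SAP and 427 ± 27.0 TPM in Con (SD, n = 8 each), a 3.21-fold fall with no overlap (log2 change -1.68, limma adjusted p = 2.07e-13). Ndufa13 (-1.07) and Ndufa11 (-1.04) followed, and Ndufc1, Ndufa8, Ndufs5 and Ndufa10 fell by 0.74 to 0.41. Ndufc2 was the gene that rose here, by 0.53, a call lost after centring on the median. Ndufa1, small and X-linked, passed in neither direction, at 293 ± 41.1 TPM in SAP and 315 ± 34.9 TPM in Con.

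In the distal membrane arm 7 of 11 genes were lower and 1 was higher, beside 29.8% and 44.2% of all genes. The median log2 change was -0.27. Ndufb4 had 14.7, 20.67 and 23.9 TPM (lowest, median, highest) in SAP, 46.04, 56.81 and 85.0 TPM in AP, and 61.68, 89.855 and 114.34 TPM in Con. It had the lowest log2 change of all Nduf genes and fell 4.01-fold without overlap (log2 change -2.005, SE 0.15, limma adjusted p = 1.85e-11). Ndufab1, the mitochondrial acyl carrier protein that also serves fatty acid synthesis in the organelle, fell by 1.28, and Ndufb7, which faces the intermembrane space, by 1.17. Ndufb9, a LYR-motif protein that binds the acyl carrier protein, had 239.83, 267.55 and 335.72 TPM in SAP, 180.38, 251.9 and 303.41 TPM in AP, and 136.89, 171.73 and 231.84 TPM in Con. All SAP libraries exceeded every Con library, and the 1.55-fold rise (log2 change 0.64, SE 0.13, limma adjusted p = 9.16e-05) passed under every alternative tried. Ndufb4 and Ndufb9 therefore moved oppositely within 1 arm, and the ratio of Ndufb4 to Ndufb9 spanned 0.0481 to 0.0997 in SAP and 0.295 to 0.759 in Con libraries. The size of that ratio carries the uncertainty of the Ndufb4 level.

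Outside the complex, Ndufa4 had the highest mean of the 41 genes over all 24 libraries, though not in Con, where Ndufv3 was highest. It stood at 461.93, 538.78 and 666.9 TPM (lowest, median, highest) in SAP, 346.84, 510.38 and 642.86 TPM in AP, and 191.66, 391.08 and 547.45 TPM in Con. SAP and Con overlapped, with 4 SAP libraries above every Con library, and the rise was 1.62-fold (log2 change 0.70, SE 0.18, limma adjusted p = 0.00124). Ndufa4l2, which is induced by hypoxia in other cells, was near the limit of measurement at 0.05, 0.245 and 0.47 TPM in SAP, 1.28, 2.595 and 4.95 TPM in AP, and 0.96, 1.745 and 2.58 TPM in Con. All SAP libraries were below every Con library (log2 change -1.16, SE 0.17, limma adjusted p = 8.17e-07), and since a pseudocount of 1 compresses such low levels, the change read -2.49 with a pseudocount of 0.1. Ndufb4c had 100.11, 142.9 and 167.96 TPM in SAP, 364.95, 400.97 and 492.27 TPM in AP, and 385.99, 444.19 and 529.45 TPM in Con. It fell 3.28-fold without overlap (log2 change -1.71, SE 0.10, limma adjusted p = 1.89e-13), but all 341 of its 50-base windows in GENCODE M21 also occur in Ndufb4, so its level and that of Ndufb4 are uncertain. Ndufs5 is also uncertain, as 21.7% of its windows occur in BC002163. Ndufa11b was listed at 0.36 TPM in SAP 24 and at 0 elsewhere. Ndufs6b was listed at 0 in every SAP library, at 0.92 TPM in AP 18, at 0.93 TPM in Con 3 and at 1.02 TPM in Con 7, and at 0 in the rest. Neither reached the filter. Ndufb1-ps, left out by the rule, averaged 91.7 ± 17.5 TPM in SAP, 189 ± 30.2 TPM in AP and 277 ± 45.0 TPM in Con (SD, n = 8 each), and was called lower in SAP than in Con (log2 change -1.59). It was also called lower in AP than in Con (log2 change -0.55, limma adjusted p = 0.0159). Of 8 AP libraries, 6 lay below every Con library.

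**Figure D4:**
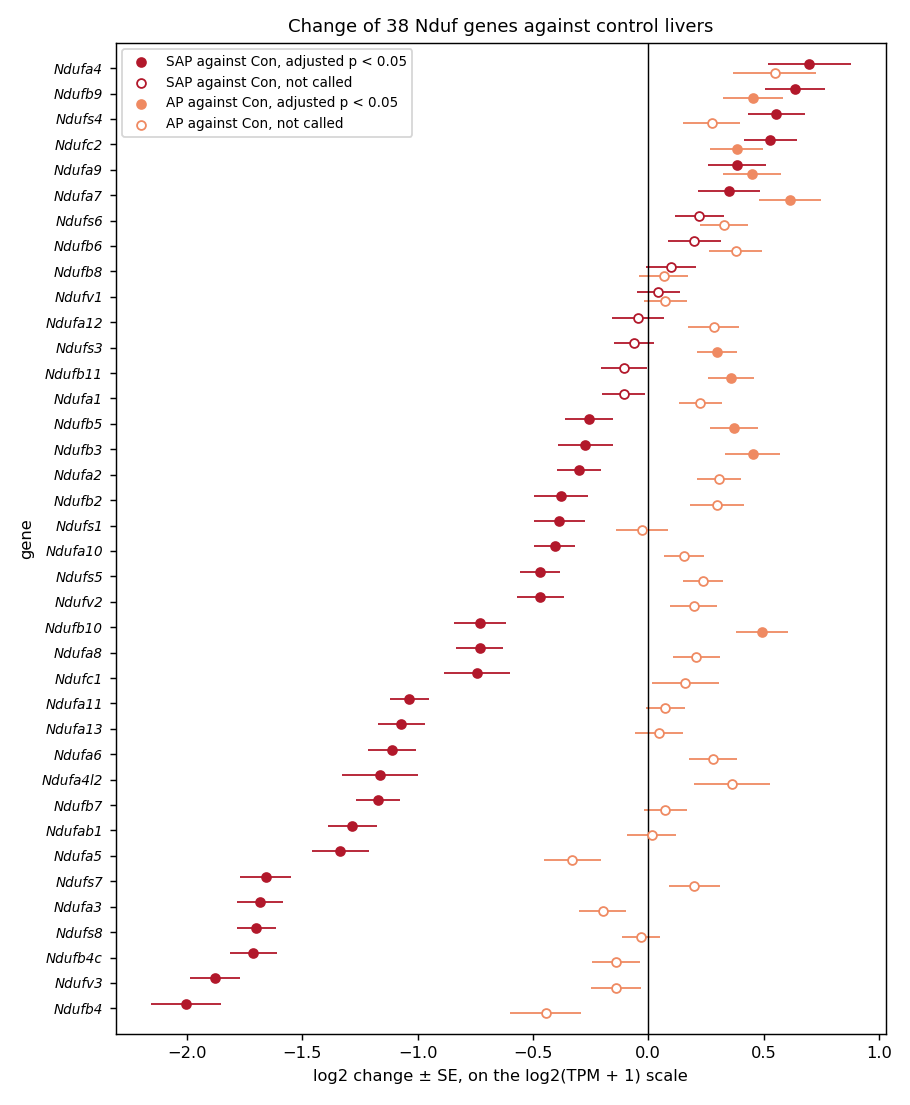
Log2 change on the log2(TPM + 1) scale with its SE (x axis) for each of 38 tested Nduf genes (y axis), ordered by the change in SAP against Con. Dark red marks SAP against Con and orange AP against Con, filled where the adjusted p was under 0.05, and the SAP changes run from -2.005 for Ndufb4 to 0.70 for Ndufa4 while the AP changes stay between -0.44 and 0.61.

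Transcript length and base composition were set beside these changes. Over the 36 subunits, Spearman's rho between the log2 change in SAP against Con and median transcript length was -0.003, and with GC content it was -0.28. These are correlations across genes, which share libraries and are not independent. At the high end of GC content, Ndufa13 (60.4%) and Ndufs7 (60.1%) fell by 1.07 and 1.66. At the low end, Ndufs4 (44.0%) rose and Ndufv2 (44.5%) fell. The part of length and base composition in the changes was not tested. Levels per length differed among subunits by a factor of 14.3 between highest and lowest mean in SAP, 15.7 in AP and 16.5 in Con. Across the 36 subunits Spearman's rho of mean levels was 0.64 between SAP and Con and 0.95 between AP and Con, so the order of subunits in AP was close to that in Con while in SAP it was rearranged. The extremes show this: the highest mean belonged to Ndufa1 in SAP, Ndufb7 in AP and Ndufv3 in Con, and the lowest to Ndufb4 in SAP and to Ndufs1 in AP and Con. The place of Ndufb4 in this order is uncertain, because all 341 windows of Ndufb4c also occur in Ndufb4.

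Promoters were set beside these changes, because NRF1, GABP (an ETS factor) and the estrogen-related receptors are known activators of respiratory chain genes. RefSeq windows on GRCm38.p6, from 250 bases before to 50 bases after the transcript start, were found for 33 of the 41 genes. The NRF1 motif, GCGCA then any base then GCGC, searched on both strands, occurred in 7 of these 33 genes (21.2%), beside 5.19% of all 27025 genes with such a window, each gene counted once whatever its number of starts. The 7 were Ndufa11, Ndufa5, Ndufa6, Ndufa8, Ndufb4, Ndufs5 and Ndufs6, of which 6 fell in SAP against Con, 0 rose and Ndufs6 passed in neither direction. Among all 33 genes with a window 20 fell, 5 rose and 8 passed in neither direction. The gene of the factor, Nrf1, averaged 4.535 TPM in SAP, 1.25 TPM in AP and 1.26 TPM in Con. The ETS motif CCGGAAG occurred in 4 genes (12.1%, beside 9.93% of all genes), namely Ndufb6, Ndufb7, Ndufs3 and Ndufs8. Of these 4, 2 fell, 0 rose and 2 passed in neither direction. The estrogen-related receptor motif TCAAGGTCA occurred in 0 genes, beside 0.466% of all genes. A match is a string of letters, not a site shown to be bound. Shown are the promoters of Ndufb4, which had the lowest log2 change, from an uncertain level, and holds 3 NRF1 matches, and of Ndufa6, which fell and holds 1. Next stands Ndufs8, the core subunit with the largest fall, with 1 ETS match. Ndufs6 was not called and holds 1 NRF1 match, and Ndufs4, which rose, holds none of the 3 motifs. Capitals mark NRF1 matches in Ndufb4, Ndufa6 and Ndufs6 and the ETS match in Ndufs8, on either strand, and none of these windows holds more than 1 of the 3 motifs. The 5 genes lie on the minus strand of GRCm38.p6 and are written 5′ to 3′ along the gene: Ndufb4 at chr16:37654319-37654618, Ndufa6 at chr15:82354242-82354541, Ndufs8 at chr19:3912725-3913024, Ndufs6 at chr13:73328433-73328732, Ndufs4 at chr13:114388045-114388344.
Ndufb4: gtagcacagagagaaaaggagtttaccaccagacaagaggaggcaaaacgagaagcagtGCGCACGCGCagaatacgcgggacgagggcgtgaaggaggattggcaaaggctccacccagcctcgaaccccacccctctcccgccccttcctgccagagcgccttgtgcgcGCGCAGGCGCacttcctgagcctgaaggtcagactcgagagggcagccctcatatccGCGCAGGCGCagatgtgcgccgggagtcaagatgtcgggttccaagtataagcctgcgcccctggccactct
Ndufa6: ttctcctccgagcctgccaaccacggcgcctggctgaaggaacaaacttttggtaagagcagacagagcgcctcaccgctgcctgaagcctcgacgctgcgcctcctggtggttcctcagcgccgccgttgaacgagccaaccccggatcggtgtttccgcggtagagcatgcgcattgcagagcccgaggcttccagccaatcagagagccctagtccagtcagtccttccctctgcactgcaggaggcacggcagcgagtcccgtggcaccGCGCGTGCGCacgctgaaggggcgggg
Ndufs8: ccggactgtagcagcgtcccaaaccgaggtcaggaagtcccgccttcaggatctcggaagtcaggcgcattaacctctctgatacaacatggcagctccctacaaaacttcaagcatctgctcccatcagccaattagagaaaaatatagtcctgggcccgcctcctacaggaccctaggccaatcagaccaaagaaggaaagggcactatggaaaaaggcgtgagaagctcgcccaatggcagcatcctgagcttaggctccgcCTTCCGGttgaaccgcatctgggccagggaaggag
Ndufs6: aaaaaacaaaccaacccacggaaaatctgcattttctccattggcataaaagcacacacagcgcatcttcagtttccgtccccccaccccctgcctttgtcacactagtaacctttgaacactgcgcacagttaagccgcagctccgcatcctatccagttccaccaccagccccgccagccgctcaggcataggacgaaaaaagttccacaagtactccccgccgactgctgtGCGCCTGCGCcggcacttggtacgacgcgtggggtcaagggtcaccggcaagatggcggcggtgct
Ndufs4: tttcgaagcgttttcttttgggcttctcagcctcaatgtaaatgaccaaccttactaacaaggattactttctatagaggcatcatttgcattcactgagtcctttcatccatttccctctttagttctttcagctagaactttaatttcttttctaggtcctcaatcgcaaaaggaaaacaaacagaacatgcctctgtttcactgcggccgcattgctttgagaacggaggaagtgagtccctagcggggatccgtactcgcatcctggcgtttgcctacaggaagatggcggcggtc

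Against AP, the fall in SAP was wider still. In SAP against AP, 29 of 39 Nduf genes were lower and 1 was higher (limma, adjusted p under 0.05), beside 31.0% and 41.0% of all genes. The median log2 change was -0.67, beside 0.13 over all genes, and in 25 genes every SAP library lay below every AP library, as in 15.2% of all genes. All 24 genes that fell against Con also fell against AP. The 2 comparisons share the SAP libraries. By place, 6 of 7 core subunits, 5 of 9 in the matrix arm, 8 of 9 in the proximal and 8 of 11 in the distal membrane arm were lower. Ndufs7 was 3.62-fold lower in SAP than in AP (log2 change -1.86, limma adjusted p = 1.93e-13) and Ndufv3 3.33-fold lower (-1.74, limma adjusted p = 4.52e-13). Ndufs8 was lower by 1.67 on the log2 scale (limma adjusted p = 8.02e-15).

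Ndufs3, which had not been called against Con, fell by 0.36 against AP, with every SAP library below every AP library (limma adjusted p = 7.24e-04), a call lost after quantile normalization (limma adjusted p = 0.0657). Ndufs4, the 1 gene called higher, had a log2 change of 0.28 (SE 0.12, limma adjusted p = 0.0444), which was 0.20 without SAP 27 (limma adjusted p = 0.116). Leaving out SAP 22, 24, 26, 28 or 29, or AP 11, 12, 13, 16 or 17, in turn also ended that call. Ndufb9 and Ndufa4, raised against Con, were not called against AP, with log2 changes of 0.18 and 0.15. Ndufb9 was called higher against AP after quantile normalization (0.45, limma adjusted p = 7.20e-04), without the 50 most abundant genes (0.32, limma adjusted p = 0.0169) and without AP 15, 17, 18 and 19 (0.44, limma adjusted p = 0.00860).

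Among the Nduf genes chosen by the rule, AP livers showed small rises and 0 called falls. Ndufb1-ps, outside the rule, was called lower (log2 change -0.55). In AP against Con, 9 of 39 Nduf genes were higher (23.1%), beside 4.35% of all genes, and 0 were lower, beside 1.13% of all genes (limma, adjusted p under 0.05). At an unadjusted p under 0.05 there were 22 higher and 2 lower. Log2 changes were positive in 32 and negative in 7 genes, with a median of 0.24, beside 0.06 over all genes. In 0 Nduf genes were all AP libraries above or all below every Con library, which 0.644% and 0.104% of all genes showed. The 9 were Ndufa7, Ndufb10, Ndufb9, Ndufb3, Ndufa9, Ndufc2, Ndufb5, Ndufb11 and Ndufs3, of which 5 belong to the distal membrane arm.

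Ndufa7, in the matrix arm, had 219.06, 260.68 and 338.16 TPM (lowest, median, highest) in AP, against 122.13, 170.9 and 269.58 TPM in Con. The groups overlapped, with 4 AP libraries above every Con library, and the rise was 1.53-fold (log2 change 0.61, SE 0.13, limma adjusted p = 0.0121). Ndufb10, a distal subunit, had 209.41, 254.19 and 322.89 TPM in AP, against 146.44, 199.995 and 215.39 TPM in Con. Here 7 of 8 AP libraries exceeded every Con library, a 1.41-fold rise (log2 change 0.49, SE 0.11, limma adjusted p = 0.0151). Ndufb10 was lower in SAP than in both other groups, at 100.93, 107.81 and 140.5 TPM (log2 change against Con -0.73, limma adjusted p = 2.50e-06). Ndufb9 rose 1.37-fold in AP (log2 change 0.45, limma adjusted p = 0.0380) and Ndufs3 by 0.30 (limma adjusted p = 0.0432).

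The 9 rises depended on the libraries and the scaling. Without AP 15, 17, 18 and 19, chosen with earlier results of these data known, 0 Nduf genes passed, beside 0.0849% of all genes then called higher. The number was 2 without AP 15, 17 or 18 or Con 1, 7 or 10, 3 without AP 19, 6 without Con 9 and 14 without Con 6. It was 2 once the mitochondrial genome was removed and 1 after quantile normalization, with 2 genes then lower. Within AP, libraries 15, 17, 18 and 19 had higher levels of Ndufb10 (263.98 to 322.89 TPM) than libraries 11, 12, 13 and 16 (209.41 to 244.41 TPM), and the mitochondrial share of TPM ran between 7.81% and 10.3% in AP 15, 17, 18 and 19 and between 11.5% and 13.7% in the other 4. The part of that share in the rises was not tested.

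Placed side by side, the comparisons with Con fell into a few patterns, although they share the Con libraries. Ndufa7, Ndufa9, Ndufb9 and Ndufc2 were higher in both SAP and AP. The AP calls of Ndufa9, Ndufb9 and Ndufc2 were lost without any 1 of AP 15, 17, 18 and 19 or Con 1, 7 and 10. In SAP, the calls of Ndufa7, Ndufa9 and Ndufc2 were lost after median centring. Ndufb10, Ndufb3 and Ndufb5 were lower in SAP and higher in AP. The falls of Ndufb3 (log2 change -0.27, limma adjusted p = 0.0418) and Ndufb5 (-0.26, limma adjusted p = 0.0296) rested on single libraries. That of Ndufb3 was lost on leaving out any 1 of SAP 21, 22, 25, 27, 28 and 29 or Con 3, 5, 6, 8 and 9, and that of Ndufb5 on leaving out any 1 of SAP 29 or Con 5, 6 and 8. Ndufb11 and Ndufs3 were called higher in AP and not called in SAP, Ndufa4 and Ndufs4 were called higher in SAP and not called in AP, and 21 genes were lower in SAP with no call in AP. The remaining 7 had no call against Con, Ndufa1, Ndufa12, Ndufb6, Ndufb8, Ndufs6 and Ndufv1 among them.

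The mitochondrial genome encodes the 7 mt-Nd subunits, which form the core of the membrane arm. They summed to 12343 ± 4691 TPM in SAP, 36318 ± 6831 TPM in AP and 54784 ± 11322 TPM in Con libraries (SD, n = 8 each). The highest SAP library had 21004 TPM and the lowest Con library 42284 TPM. In SAP against Con 6 of 7 were lower (limma, adjusted p under 0.05), beside 29.8% of all genes, with a median log2 change of -2.004. Among them were mt-Nd3 at -3.98, mt-Nd4l at -3.34 and mt-Nd2 at -2.55, and mt-Nd4 was not called (log2 change -0.37). In AP against Con 2 of 7 were lower, mt-Nd4l by 0.84 and mt-Nd5 by 0.57 (limma adjusted p = 0.0401 each), beside 1.13% of all genes. Of the 36 nuclear subunits chosen by the rule, which left out Ndufb1-ps, 0 were lower. The ratio of the mt-Nd sum to the Nduf sum was 2.40 ± 0.80 in SAP, 4.46 ± 0.98 in AP and 7.58 ± 2.10 in Con libraries.

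Assembly factors, which help to build complex I and are not part of it, were likewise mostly lower in SAP. Of 18 tested, 11 were lower and 3 higher in SAP against Con, beside 29.8% and 44.2% of all genes. Their median log2 change was -0.43. In AP against Con 0 passed, beside 4.35% of all genes higher and 1.13% lower. Ecsit averaged 8.98 ± 2.70 TPM in SAP, 32.04 ± 2.53 TPM in AP and 31.3 ± 1.36 TPM in Con (SD, n = 8 each), and fell by 1.74 on the log2 scale without overlap (limma adjusted p = 6.07e-12). Timmdc1, a membrane-arm factor, fell by 1.31 and Ndufaf3 by 1.10.

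The other respiratory complexes had calls in both directions. In SAP against Con, complex II had 2 higher and 1 lower of 4 genes, complex III 5 and 3 of 9, complex IV 3 and 5 of 10, and complex V 6 and 5 of 14, with median log2 changes of 0.67, 0.33, -0.06 and 0.17. Among all genes 44.2% were higher and 29.8% were lower, with a median log2 change of 0.21, so calls in both directions were common throughout. Single genes moved far in both directions. Of complex II, Sdha rose by 1.44 and Sdhd by 1.32, whereas Sdhb fell by 1.01. Of complexes III to V, Uqcrq fell by 1.51 and Atp5e by 1.31, whereas Cox5a rose by 1.87 and Atp5g3 by 1.92. In AP against Con these lists had 1, 4, 5 and 5 genes higher and 0 lower, beside 4.35% and 1.13% of all genes. No test of the difference between lists was made.

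**Figure D5:**
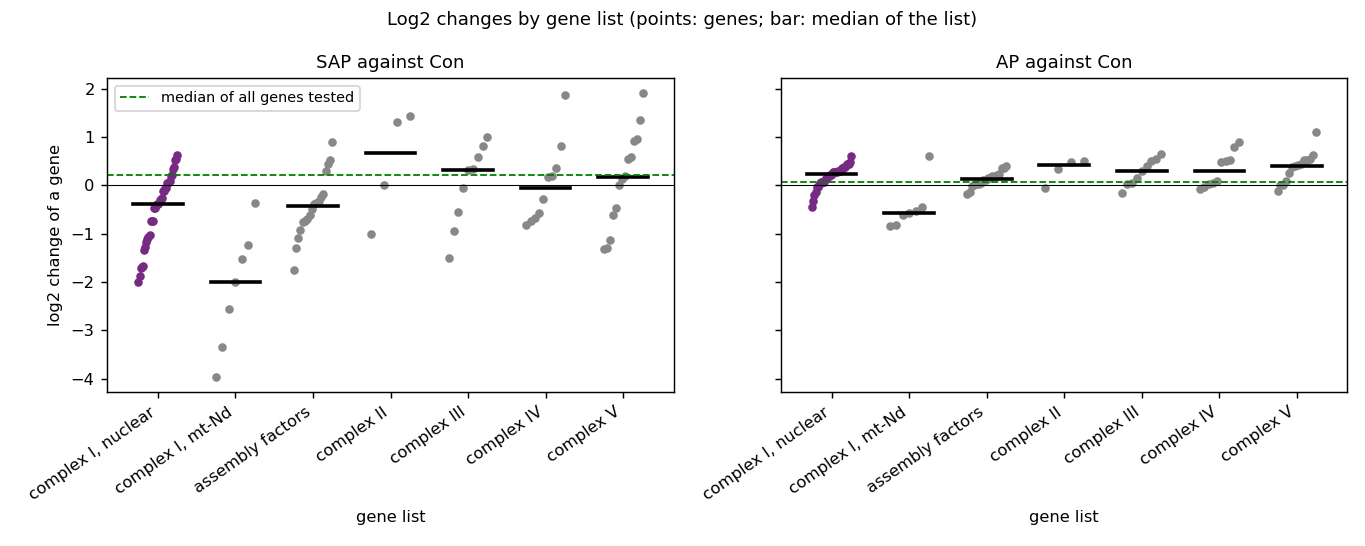
Log2 change (y axis) of single genes in SAP against Con (left) and AP against Con (right), by list (x axis), with a bar at each median and a dashed line at the median of all genes tested. In SAP the nuclear complex I subunits have a median of -0.38, the mt-Nd genes of -2.004 and the assembly factors of -0.43, and complexes II, III, IV and V of 0.67, 0.33, -0.06 and 0.17.

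Regulators of mitochondrial genes mostly rose: of 12 tested, 9 were higher and 2 lower in SAP against Con, beside 44.2% and 29.8% of all genes. Their median log2 change was 0.87, beside 0.21 over all genes. In AP against Con 0 passed, beside 4.35% of all genes higher and 1.13% lower. Tfam packages mitochondrial DNA and takes part in its transcription. It averaged 13.1 ± 5.27 TPM in SAP and 2.95 ± 0.451 TPM in Con (SD, n = 8 each, log2 change 1.75). Gabpa rose by 1.39. Esrra, the estrogen-related receptor alpha, averaged 4.33 ± 1.63 TPM in SAP, 16.0 ± 1.93 TPM in AP and 18.2 ± 4.79 TPM in Con, and fell by 1.87 without overlap (limma adjusted p = 1.88e-10). Among 12 genes of the matrix and outer membrane 6 rose and 2 fell in SAP, beside the same 44.2% and 29.8% of all genes. The largest rise was that of Tomm20, a receptor for imported proteins, at a log2 change of 2.59. In AP against Con 2 of these 12 rose and 0 fell, beside the 4.35% and 1.13% of all genes given above.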

How the data were processed

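Liver RNA had been sequenced in 24 libraries, mapped to SAP, AP and Con by their titles. The authors deposited 1 table in TPM with 2 decimals. No header names the unit, which was read from the values: each library sums to just under 1000000. The submitters' processing notes name edgeR, with no version. No aligner, genome build, annotation or strand setting is named there or in the labels, so reads of genes that overlap on opposite strands (Ndufs3 and Kbtbd4, for example) cannot be told apart. TPM keeps no read counts, so depth is unknown and no counting interval is given. A gene's TPM also depends on the other transcripts of its library.

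From the deposited TPM, log2(TPM + 1) was fitted by group over all 24 libraries with limma 3.58.1 (R 4.3.3, intensity trend, 21 residual degrees of freedom) for the 10555 genes that averaged 1 TPM or more. Calls needed an adjusted p under 0.05 (Benjamini-Hochberg over all these genes, per comparison). The fit was tested on simulated data with independent genes, 200 of them changed, which cannot speak to scaling or to correlated genes. Fold changes carry the pseudocount of 1 and so understate changes of low genes. The Nduf genes, the lists and the sets of libraries left out together were chosen with earlier results of these data known, and those results give no independent support. Fully described are the core subunits, per comparison the 3 called genes highest and the 3 lowest in log2 change, given an average of 5 TPM or more, the highest and lowest gene, and the names outside the complex. The other genes follow in ranges and counts, and 1 gene stays in all tests and counts but is not reported here by itself. From each other list at most 3 genes with the largest called change per comparison are named, and Nrf1 is given beside its motif. Shared sequence was searched in windows of 50 bases of GENCODE M21 transcripts, and a level was called uncertain from 20% of shared windows. Promoters come from RefSeq on GRCm38.p6. Alternatives were other scalings, filters, pseudocounts and thresholds, limma without trend or with array weights, 2 groups alone, and leaving out libraries.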

Additional observations from a re-analysis of the deposited data

Results flagged for a closer look

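Ndufs4 in SAP 27 was flagged because 1 library stood far from the rest of its group. It had 96.4 TPM, and the other 7 SAP libraries lay between 53.0 and 67.28 TPM. On the log2(TPM + 1) scale the gap was 0.602 of the group's whole range, above Dixon's critical value for 8 libraries. Among the 117 sets of 8 libraries examined it was the only one flagged, and chance flags about 1 set in 20. Without SAP 27 the rise of Ndufs4 against Con kept its call and its call against AP was lost.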

How the results depend on the processing

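Genes called lower in SAP stayed between 20 and 29 against Con and between 25 and 34 against AP under the 15 alternatives to each, and between 22 and 24 and between 28 and 29 when single libraries were left out. The 6 genes higher in SAP than in Con became 2 after median centring, beside 29 lower, and 5 to 7 without single libraries. Quantile normalization gave 7 higher and 24 lower. The median log2 change of all genes in SAP against Con was 0.21, and 0.03 after quantile normalization, -0.06 after median centring and 0.04 without the mitochondrial genome. For the 9 genes higher in AP than in Con, the number was 1 after quantile normalization, 3 after median centring, 2 without the 50 most abundant genes, 2 without the mitochondrial genome, 2 with no filter, 15 with array weights, 4 with the 2 groups alone, 0 at an adjusted p under 0.01, 0 without AP 15, 17, 18 and 19, and 2 to 14 without single libraries. The 0 genes lower in AP became 2 with quantile normalization, 2 with array weights, 2 without Con 3 and 9, and 0 to 1 without single libraries. The 1 gene higher in SAP than in AP became 4 with quantile normalization (beside 25 lower), 3 without the 50 most abundant genes, 2 without AP 15, 17, 18 and 19, and 0 with median centring, without the mitochondrial genome, with no filter, with array weights, with the 2 groups alone, at an adjusted p under 0.01 or without SAP 26 to 29, and 0 to 1 without single libraries. Single changes were followed only for the fully described genes. Of these, the ones that changed sign were uncalled, except that Ndufv1 was called lower in SAP against Con after median centring (adjusted p = 0.0232). They were, in SAP against Con, Ndufv1 (-0.0238 quantile normalization, -0.23 median centring, -0.16 without the mitochondrial genome, -0.00142 to 0.0904 without single libraries). In AP against Con they were Ndufs1 (0.0411) and Ndufs8 (0.0161) without AP 15, 17, 18 and 19, Ndufs1 also without single libraries (-0.0686 to 0.0155), and Ndufv1 (-0.12 quantile normalization, -0.0608 without the 50 most abundant genes, -0.0319 without the mitochondrial genome). In SAP against AP they were Ndufv1 (0.10 with quantile normalization and 0.10 without the 50 most abundant genes, -0.0753 to 0.0165 without single libraries), Ndufa4 (-0.0750) and Ndufb9 (-0.0428) after median centring, and Ndufa7 (0.0165) after quantile normalization. The cause was not tested. No paired analysis was possible because the groups share no replicate numbers.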
